A study of Mus musculus with 3 samples.

Results

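10 genes of inflammation were followed across the cell types present among Alcam+Sca-1- bone-lining cells (BLCs), a stromal fraction freed from the inner bone surface. They are the chemokine genes Ccl2, Ccl7, Cxcl1, Cxcl2 and Cxcl5, the cytokine gene Il6, the acute-phase genes Saa3, Lcn2 and Hp, and Nos2, which encodes inducible nitric oxide synthase. They were taken by symbol from the 32285 genes of the count tables, and each of the 10 symbols matched 1 gene. All 10 were detected, with 724 UMIs for Cxcl5 and 1001 for Saa3 at the low end and 19173 for Lcn2 and 30327 for Hp at the high end (a UMI, or unique molecular identifier, marks 1 captured RNA molecule).

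The cells came from WT mice. No treatment or added allele is named for any of the 3 libraries, which form 1 group with replicates 1, 2 and 3. Femora, tibias and iliac bones were cut up after the marrow had been flushed out and were digested with collagenase for 90 min at 37 °C, and Alcam+ cells lacking CD45, Ter119, Sca-1 and CD31 were sorted. The study worked with mice of 6 to 12 weeks of age. Neither the number of animals behind a library nor a batch is given in the labels. The p-values below measure only how the differences between cell types vary among these 3 libraries, pooled over the classes. That spread may be technical in part. Every comparison is between cell types of the same libraries.

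Chemokines are small secreted proteins that draw leukocytes. Ccl2 and Ccl7 act on the receptor Ccr2 of monocytes, while Cxcl1, Cxcl2 and Cxcl5 act on Cxcr2 of neutrophils. In stromal cells these genes and Il6 are classic targets of NF-κB after interleukin-1, tumour necrosis factor or Toll-like receptor signals, whereas Saa3, Lcn2 and Hp are also driven by C/EBP factors and Stat3. In bone marrow, Cxcl12-abundant reticular (CAR) cells, which carry the leptin receptor Lepr, are a known source of Ccl2 that releases monocytes to the blood.

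Cells were assigned by 13 lists of 8 marker genes, none of which holds any of the 10 genes. A cell took the class of which it showed the most markers, if these were at least 3 and at least 1 more than for any other class, and the names below are those of the lists. Of 18232 cells, 644, 71 and 103 were CAR-like in replicates 1, 2 and 3, and 541, 5767 and 8406 were chondrocyte-like. Osteoblast-like cells numbered 78, 190 and 290, tendon-like cells 82, 44 and 45, and leukocyte-like cells (macrophage-, neutrophil-, B/plasma- and T/NK-like together) 207, 25 and 53. Fibroblast-like and mural-like cells reached the 20 cells needed for a summed value in replicate 1 alone, with 44 and 58 cells. In CAR-like cells Lepr was at 1300, 1126 and 1140 CPM (counts-per-million, relative to the total UMIs of those cells). Chondrocyte-like cells had 38.6, 7.07 and 7.92 CPM of Lepr, and their Acan stood at 1308, 2375 and 2261 CPM. Lepr and Acan are markers of these gates, so their levels follow from the assignment and do not test the labels. Few cells lay on the limit of 3 markers among CAR-like cells (6.21%, 0% and 0.971%), while 59.1% of the fibroblast-like cells of replicate 1 did. The sort markers were checked as transcripts: Alcam was detected in 12.1%, 10.8% and 7.28% of cells, Ly6a (Sca-1) in 10.1%, 5.59% and 3.24% and Ptprc (CD45) in 5.78%, 1.76% and 1.85%.

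Replicate 1 stood apart from the other libraries. It held 2476 analysed cells against 6363 and 9393, and 26.0% of them were CAR-like against 1.12% and 1.10%. Its chondrocyte-like cells carried a median of 4 of the 8 cartilage markers against 7 and 7. Results are therefore given for each library and with replicate 1 left out. Median depth was 5848, 6509 and 3772 UMIs in CAR-like cells and 6273, 10355 and 6100 UMIs in chondrocyte-like cells. The abundant cartilage gene Col2a1 was detected in 4.81%, 98.6% and 96.1% of CAR-like cells, whose median count of cartilage markers was 4 and 3 of 8 in replicates 2 and 3. Free RNA and doublets cannot be told apart here. Erythroid-like cells (median depth 14249, 20562 and 8226 UMIs), which should lack the 10 genes, served as the background for shares of cells. 5, 9 and 28 barcodes were shared between the pairs of libraries.

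The genes sit in a few clusters of the mouse genome (GRCm38, GENCODE gene models, all protein-coding). Ccl2 (chr11:82035571-82037453) and Ccl7 (chr11:82045712-82047525) are neighbours on the plus strand, with Nos2 (chr11:78920787-78960254) on the same chromosome. Cxcl5 (chr5:90759360-90761624), Cxcl1 (chr5:90891241-90893115) and Cxcl2 (chr5:90903871-90905938) lie in 1 cluster on the plus strand, and Il6 (chr5:30013114-30019981) is elsewhere on that chromosome. Lcn2 (chr2:32384633-32388252), Saa3 (chr7:46711998-46715700) and Hp (chr8:109575128-109579172) are on the minus strand of their chromosomes.

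The RefSeq promoter table (GRCm38.p6) held an entry for 5 of the 10 genes, Cxcl1, Cxcl2, Il6, Saa3 and Lcn2. The bases from 140 to 31 before the start of transcription are shown for the 4 of them without an annotated exon in that stretch. Il6 holds the NF-κB and the C/EBP motif there, and 5 of the 10 genes have no entry. A contrast in motif between the chemokine and the acute-phase genes can therefore not be read from these letters. Capitals mark matches, on either strand, to the NF-κB motif (Cxcl1, Cxcl2 and the match nearer to the start in Il6) or to the C/EBP motif TTGCNNAA (Saa3 and the match farther from the start in Il6).
Cxcl1, chr5:90891105-90891214, plus strand: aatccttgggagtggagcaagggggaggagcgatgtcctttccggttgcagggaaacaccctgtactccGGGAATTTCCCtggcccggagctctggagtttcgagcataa
Cxcl2, chr5:90903759-90903868, plus strand: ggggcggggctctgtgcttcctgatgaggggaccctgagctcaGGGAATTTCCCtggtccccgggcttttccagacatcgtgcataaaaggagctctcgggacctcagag
Il6, chr5:30012974-30013083, plus strand: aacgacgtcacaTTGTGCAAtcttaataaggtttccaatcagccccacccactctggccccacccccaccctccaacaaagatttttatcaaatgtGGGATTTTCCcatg
Saa3, chr7:46715707-46715816, minus strand: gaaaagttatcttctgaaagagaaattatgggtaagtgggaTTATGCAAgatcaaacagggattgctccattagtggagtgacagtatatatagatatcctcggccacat

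The NF-κB match began 71 bases before the start in Cxcl1, 97 in Cxcl2 and 44 in Il6, and in Cxcl1 and Cxcl2 the same run of letters matched in 2 overlapping frames. The C/EBP match began 128 bases before the start in Il6 and 99 in Saa3, and 1 more lay 216 bases before the start of Lcn2. An AP-1 match (TGANTCA) began 249 bases before the start of Il6. Over all 32851 promoters of the table, 7.25% of the 250-base windows before the start held the NF-κB motif, 9.56% the C/EBP motif and 6.75% the AP-1 motif. These are matches of letters only.

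The CC chemokines were highest in CAR-like cells. Ccl2, the main monocyte attractant, reached 2035, 5246 and 6639 CPM in the CAR-like cells of replicates 1, 2 and 3, against 34.2, 3.10 and 5.62 CPM in chondrocyte-like cells. The mean was 4640 ± 2361 CPM in CAR-like cells (SD, n = 3), and the next in order of the classes with 3 sums, tendon-like cells, had 1056, 81.0 and 19.5 CPM, with no overlap. CAR-like cells held 84.6%, 83.5% and 77.5% of all Ccl2 UMIs of their libraries. In replicate 2 this was 1.12% of the cells.

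Ccl2 was seen in 41.9%, 64.8% and 68.9% of CAR-like cells against 6.08%, 1.89% and 0% of erythroid-like cells. After each cell was thinned to 1000 UMIs, which left out 128, 116 and 301 shallower cells of the 3 libraries, the shares were 27.1%, 45.7% and 55.1% of CAR-like cells against 1.16%, 0% and 0%. Single cells weighed heavily, since the top CAR-like cell held 8.73%, 19.0% and 10.1% of the Ccl2 UMIs of its class. Among chondrocyte-like cells of replicate 1, 1 cell held 86 of the 132 UMIs.

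Ccl7, whose protein acts on the same receptor, stood at 164, 868 and 767 CPM in CAR-like cells against 1.55, 2.49 and 4.55 CPM in chondrocyte-like cells. Tendon-like cells overlapped the CAR-like range, at 219, 3.11 and 0 CPM, but the 219 CPM came from 114 UMIs of 1 cell. In the 44 fibroblast-like cells of replicate 1, Ccl2 was at 1169 CPM and Ccl7 at 157 CPM.

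The CXC chemokines were also found in chondrocyte-like cells of replicate 1. Cxcl1 reached 1138, 1711 and 2272 CPM in CAR-like cells and 689, 23.2 and 29.1 CPM in chondrocyte-like cells, so the ranges did not overlap, but in replicate 1 the classes were close. Fibroblast-like and mural-like cells of replicate 1 had 568 and 423 CPM. Thinned to 1000 UMIs, 24.7%, 37.1% and 36.7% of CAR-like cells showed Cxcl1, against none of the erythroid-like cells in any library.

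Cxcl2 was carried by few cells. CAR-like cells had 268, 762 and 309 CPM from 53, 3 and 9 cells, and in replicate 2 a single cell held 243 of 345 UMIs. Chondrocyte-like cells had 496, 1.96 and 4.15 CPM, so the ranges of the 2 classes overlapped through replicate 1, where the chondrocyte-like level was the higher. Cxcl5 stood at 141, 30.9 and 226 CPM in CAR-like cells and at most 2.07 CPM in chondrocyte-like cells. The CAR-like values came from 99, 7 and 10 cells. In replicates 2 and 3, 1 cell held 6 of 14 and 55 of 85 UMIs, and without it the level was 17.7 and 79.9 CPM. No Cxcl5 UMI was found in the tendon-like, fibroblast-like or mural-like cells that were summed, where 3 UMIs would have been 5.76 to 14.7 CPM.

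Il6, the cytokine that drives the acute-phase response, stood at 210, 188 and 266 CPM in CAR-like cells (221 ± 40.5, SD, n = 3). It was seen in 17.1%, 22.5% and 20.4% of them against 4.97%, 0% and 0% of erythroid-like cells. In replicates 2 and 3, 1 CAR-like cell held 48 of 85 and 39 of 100 UMIs. Without the top cell of each library the CAR-like levels were 193, 81.7 and 162 CPM. Chondrocyte-like cells had 4.92, 9.65 and 8.91 CPM and tendon-like cells 88.3, 15.6 and 9.77 CPM, neither of which overlapped the CAR-like range. The 58 mural-like cells of replicate 1 had 336 CPM, above the CAR-like level of that library, in 9 cells. By number rather than level, chondrocyte-like cells held 81.9% and 77.3% of the Il6 UMIs of replicates 2 and 3, where they were 90.6% and 89.5% of the cells, and 1.63% of those of replicate 1.

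The 3 acute-phase genes took different patterns. Hp, which encodes the haemoglobin-binding protein haptoglobin, was at 4236, 9736 and 6109 CPM in CAR-like cells and was detected in 91.3%, 98.6% and 96.1% of them. It was spread over the class rather than held by a few cells, with 76.9%, 95.7% and 92.9% of CAR-like cells positive at 1000 UMIs against 0.578%, 1.96% and 3.45% of erythroid-like cells. Chondrocyte-like cells had 29.8, 13.4 and 15.6 CPM. Of the classes with 3 sums, leukocyte-like cells came next in order, at 446, 1213 and 1376 CPM, below every CAR-like value, and neutrophil-like cells had 1708 and 1829 CPM in replicates 1 and 3.

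Saa3, which encodes a serum amyloid A made outside the liver, was at 83.9, 37.5 and 176 CPM in CAR-like cells, but in only 28, 1 and 3 cells. Its chondrocyte-like level was 1.55, 3.74 and 0.998 CPM, and 223 of the 252 UMIs of replicate 2 were in 1 cell. Saa3 was at 0 UMIs in all tendon-like, osteoblast-like, fibroblast-like and mural-like sums. A level resting on so few cells describes those cells rather than their class.

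Lcn2, which encodes the iron-siderophore-binding protein lipocalin 2, was highest in neutrophil-like cells, at 5979 and 10713 CPM in replicates 1 and 3. The 16 neutrophil-like cells of replicate 2 were below the limit of 20 cells and had 5480 CPM. Leukocyte-like cells as a whole had 1027, 3817 and 7370 CPM, in an order that moved with their makeup: 149 of 207 were B/plasma-like in replicate 1, while 36 of 53 were neutrophil-like in replicate 3. Chondrocyte-like cells had 617, 20.3 and 24.6 CPM and CAR-like cells 171, 6.62 and 5.33 CPM. Of the 666 Lcn2 UMIs in the CAR-like cells of replicate 1, 346 were in 1 cell.

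Nos2, whose enzyme makes nitric oxide in stimulated cells, was at 195, 0.904 and 2.60 CPM in chondrocyte-like cells, from 106, 31 and 85 cells. They held 88.5%, 93.8% and 100% of the Nos2 UMIs, where they were 21.8%, 90.6% and 89.5% of the cells. CAR-like cells had 2, 2 and 0 UMIs. In replicate 2 the chondrocyte-like level was below the 4.42 CPM of CAR-like and the 2.0 CPM of osteoblast-like cells, each of which came from 2 UMIs. In erythroid-like cells of replicate 1, 30 of 31 Nos2 UMIs were in 1 cell. The chondrocyte-like level of replicate 1 was far above those of the other 2 libraries, and without it the mean fell from 66.1 to 1.75 CPM.

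**Figure D1:**
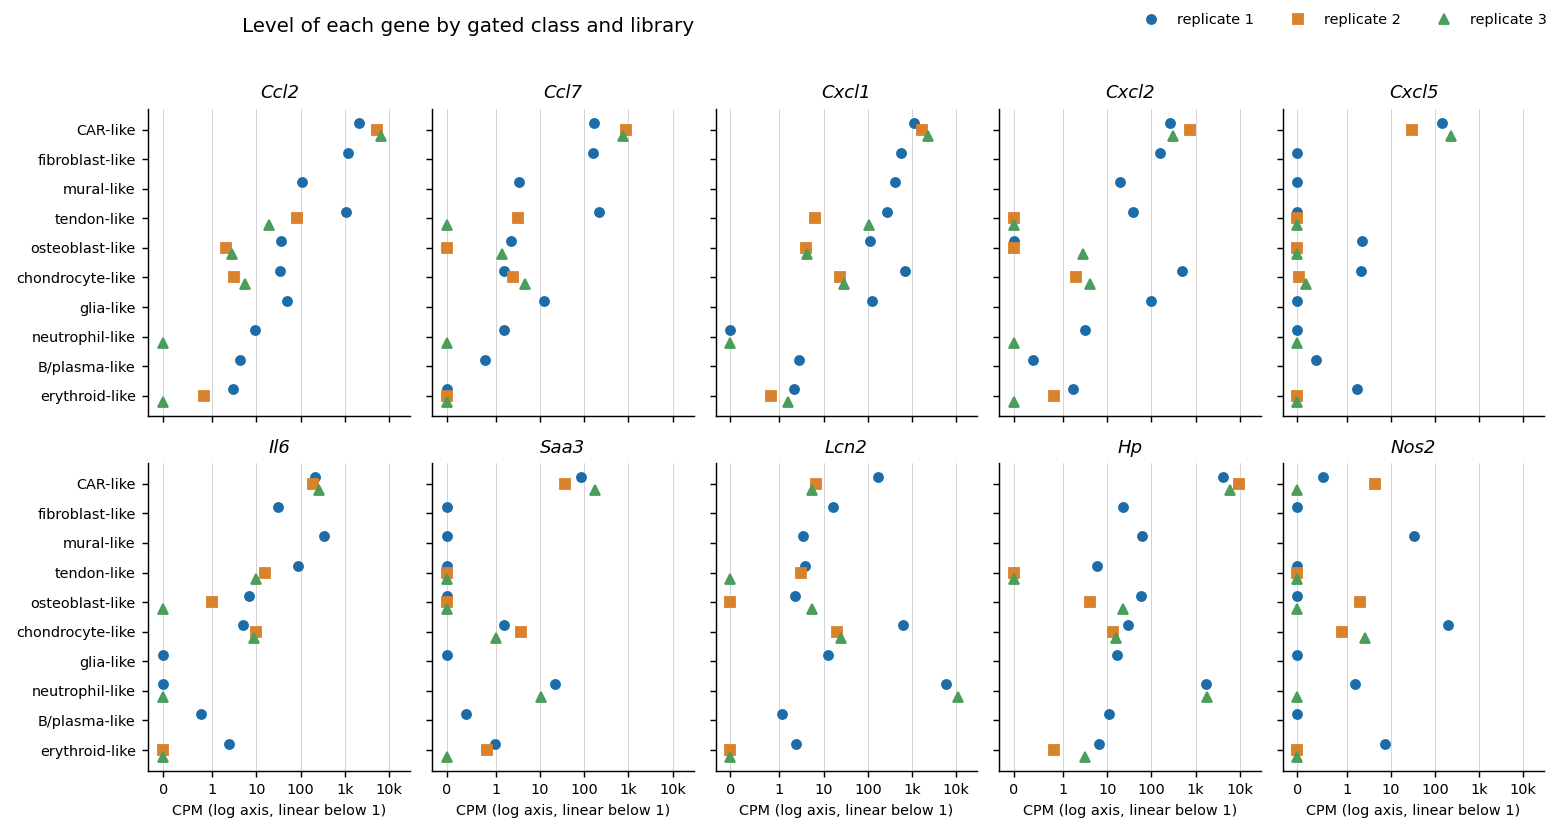
Level of each of the 10 genes in every class with at least 20 cells, in CPM on a log axis that is linear below 1. Each point is the summed value of 1 class in 1 library. The 3 CAR-like points lie furthest right for Ccl2, Cxcl1, Cxcl5 and Hp, neutrophil-like points do so for Lcn2, and the single high point of Nos2 is the chondrocyte-like sum of replicate 1.

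CAR-like and chondrocyte-like cells, the 2 largest named classes over the 3 libraries, were compared gene by gene on summed counts (edgeR's quasi-likelihood test with library as a block, Benjamini-Hochberg adjustment over 10827 genes). 8 of the 10 genes were higher in CAR-like cells at an adjusted p of 0.05, against 16.9% of all genes tested, and 1 of 10 was lower, against 18.1% of all genes. The median log2 fold change was 4.91 over the 10 genes and -0.08 over all genes tested. The 10 genes and the gates were chosen with earlier results of these data known, so these counts are a description.

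Ccl2 was higher by 9.18 ± 1.12 (log2 fold change ± SE, edgeR adjusted p = 1.70e-05) and Ccl7 by 7.19 ± 1.05 (edgeR adjusted p = 8.58e-05). Cxcl5 rose by 8.27 ± 0.70 (edgeR adjusted p = 1.89e-06), Hp by 8.08 ± 0.74 (edgeR adjusted p = 1.36e-06), Il6 by 4.23 ± 0.51 (edgeR adjusted p = 1.54e-05) and Saa3 by 4.83 ± 0.98 (edgeR adjusted p = 0.00273). These 6 genes were called higher in all 14 alternatives tried. Within libraries the CPM ratio of CAR-like to chondrocyte-like cells was 59.5, 1693 and 1182 for Ccl2, 106, 348 and 169 for Ccl7, 42.7, 19.4 and 29.9 for Il6 and 142, 725 and 392 for Hp. For Cxcl5 it was 68.2, 1042 and 1270, where the second value rests on 2 chondrocyte-like UMIs (95% counting interval 239 to 9449). The Saa3 ratio was 54.0, 10.0 and 176.

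Cxcl1 and Cxcl2 depended on the library. Cxcl1 was higher by 4.50 ± 0.93 (edgeR adjusted p = 0.00156), with ratios of 1.65 (95% counting interval 1.57 to 1.73), 73.6 and 78.0 in replicates 1, 2 and 3. Without replicate 1 its log2 fold change was 5.82, and without replicate 2 it was 3.38 (edgeR adjusted p = 0.0700). With no library block it was 2.34 (edgeR adjusted p = 0.150). Cxcl2 was higher by 4.99 ± 1.61 (edgeR adjusted p = 0.0252) although its ratio was below 1 in replicate 1, at 0.541 (0.501 to 0.583), and 389 and 74.4 in the others. Its call was lost in 5 alternatives, among them the fits without replicate 2 (1.83, edgeR adjusted p = 0.513), without replicate 3 (4.01, edgeR adjusted p = 0.370) and with no library block (0.97, edgeR adjusted p = 0.602), while without replicate 1 it was 7.04 (edgeR adjusted p = 2.24e-13).

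Nos2 was the gene called lower, by -7.35 ± 1.65 (edgeR adjusted p = 0.00366), but not under DESeq2 (DESeq2 adjusted p = 0.161). The call rests on replicate 1, where the ratio was 0.00264 (0.000319 to 0.00957). In replicate 2 the ratio was 4.88 with an interval of 0.578 to 18.4, in replicate 3 the chondrocyte-like level of 2.60 CPM lay under the 7.99 CPM that 3 UMIs would give in CAR-like cells, and without replicate 1 Nos2 had too few counts to be tested. Lcn2 did not pass the test (-1.93 ± 0.99, edgeR adjusted p = 0.148), with ratios of 0.277, 0.326 and 0.217, below 1 in 3 of 3 libraries. Without replicate 1 it was called lower (-2.32, edgeR adjusted p = 0.00132).

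**Figure D2:**
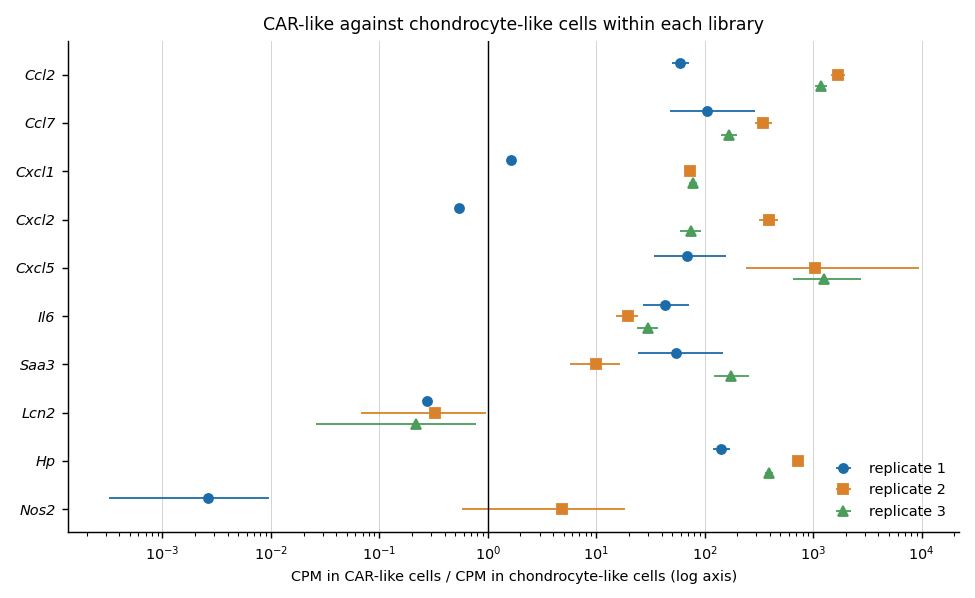
Ratio of the CPM in CAR-like cells to that in chondrocyte-like cells within each library, on a log axis, with 95% counting intervals as bars and a line at 1. Nos2 of replicate 3 is not drawn because its CAR-like sum held 0 UMIs. Ccl2, Ccl7, Cxcl5, Il6, Saa3 and Hp lie right of 1 in all 3 libraries, and the replicate 1 points of Cxcl1 (1.65) and Cxcl2 (0.541) stand far left of the other 2.

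Fibroblast-like cells, which had a sum in replicate 1 alone, had Ccl2 called higher than in chondrocyte-like cells (5.01 ± 1.12, edgeR adjusted p = 0.0218). The call was lost without replicate 2 (edgeR adjusted p = 0.119) and without replicate 3 (edgeR adjusted p = 0.0768). This was 1 of 10 higher against 2.29% of all genes, and 0 of 10 lower against 1.68%. The lone sum was assumed to vary like the other classes. Within replicate 1, Ccl2 was 34.2-fold (27.9 to 42.1) and Ccl7 101-fold (43.1 to 289) the chondrocyte-like level. Other genes were lower there, with ratios of 0.0270 (0.00877 to 0.0632) for Lcn2 and 0.316 (0.232 to 0.422) for Cxcl2, and Nos2 was at least 19.4-fold lower, but none of these passed the test. CAR-like cells exceeded fibroblast-like cells in Hp (8.49 ± 1.35, edgeR adjusted p = 0.00188) and in Cxcl5, at 0 UMIs in fibroblast-like cells and at least 14.1-fold higher in CAR-like cells of replicate 1. The Cxcl5 call was lost under DESeq2, with no library block and without replicate 2 (adjusted p up to 0.120). That made 2 of 10 higher against 2.68% of all genes, and 0 of 10 lower against 3.05%.

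The other chemokines were not called between these 2 stromal classes. In replicate 1 the CAR-like level was 1.74-fold the fibroblast-like level for Ccl2 (1.56 to 1.94), 1.05-fold for Ccl7 (0.778 to 1.44), 2.00-fold for Cxcl1 (1.72 to 2.35) and 1.71-fold for Cxcl2 (1.28 to 2.34). The fitted values, which also use replicates 2 and 3, were 4.17 for Ccl2 (edgeR adjusted p = 0.141) and 4.46 for Cxcl1 (edgeR adjusted p = 0.105). When sums of 10 cells or more were admitted, which gave fibroblast-like sums in all 3 libraries, 5 of the 9 genes tested were called higher in CAR-like cells (Ccl2, Cxcl2, Cxcl5, Il6 and Hp), against 8.68% of all genes, and 0 lower, against 5.84%.

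Tendon-like cells had 3 of the 10 genes called higher than in chondrocyte-like cells, against 9.23% of all genes, and 3 called lower, against 12.5%. Ccl2 was higher by 4.06 ± 0.91 (edgeR adjusted p = 0.00495), with ratios of 30.9 (25.5 to 37.6), 26.1 (16.7 to 39.4) and 3.48 (0.943 to 9.002). Ccl2 kept its call without replicate 1 (3.36, edgeR adjusted p = 2.10e-06) and lost it without replicate 2 (4.02, edgeR adjusted p = 0.0716). Ccl7 (4.01, edgeR adjusted p = 0.0216) and Il6 (1.77, edgeR adjusted p = 0.0460) rested on replicate 1. Without it they stood at -1.22 and 0.13, neither of them called (edgeR adjusted p = 0.558 and 0.900), and without the top cell of each gene Ccl7 stood at -7.11. The genes called lower, Hp, Lcn2 and Nos2, had 3, 3 and 0 UMIs in all tendon-like cells, and Nos2 was at least 33.8-fold lower in replicate 1. The Hp call was lost in 4 alternatives, among them the fits without replicate 2 or 3 (edgeR adjusted p up to 0.176), the Lcn2 call without replicate 2 (edgeR adjusted p = 0.0576) and the Nos2 call under DESeq2, with no library block and without replicate 3 (adjusted p up to 0.126). The balance of all calls in this comparison depended on the scaling, with 999 genes higher and 1357 lower under TMM against 1253 and 1097 under DESeq2's size factors, which moved the median of all genes by 0.16 (log2).

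Osteoblast-like cells had none of the 10 genes above 110 CPM in any library, with 0 of 10 called higher against 13.2% of all genes and 3 of 10 lower against 17.7%. Cxcl1 stood at 110, 4.0 and 4.18 CPM, from 50, 4 and 3 UMIs. It was called lower than in chondrocyte-like cells (-2.67 ± 0.91, edgeR adjusted p = 0.0366). The ratios were 0.160 (0.119 to 0.212), 0.172 (0.0469 to 0.442) and 0.143 (0.0296 to 0.420), below 1 in 3 of 3 libraries. In replicate 1, 1 cell held 25 of the 50 UMIs. Lcn2 had 1, 0 and 4 UMIs and was called lower as well (-5.51 ± 1.49, edgeR adjusted p = 0.0113), with 0.00358 (9.05e-05 to 0.0200) and 0.227 (0.0617 to 0.582) as the ratios of replicates 1 and 3 and a level at least 6.78-fold lower in replicate 2. Nos2, also called lower, had 2 UMIs in all. In replicate 1 it was at least 29.4-fold lower, and Cxcl2 at least 74.9-fold lower. Cxcl1 lost its call without replicate 2 (edgeR adjusted p = 0.119) or replicate 3 (edgeR adjusted p = 0.150), with no library block, with a gate of 4 markers and with sums of 10 cells. Lcn2 lost it without replicate 2 (edgeR adjusted p = 0.0735), and Nos2 under DESeq2, with no library block and without replicate 3 (adjusted p up to 0.141).

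Leukocyte-like cells had 3 genes called higher than in chondrocyte-like cells, against 23.3% of all genes, and 3 lower, against 31.7%. Lcn2 rose by 6.29 ± 1.20 (edgeR adjusted p = 0.000442), with ratios of 1.66, 188 and 300. Hp rose by 5.67 ± 0.67, with ratios of 15.0, 90.3 and 88.3, and was called in all 14 alternatives, as was Lcn2. Saa3 rose by 2.93 ± 1.05 (edgeR adjusted p = 0.0347) but stood at 0.60 without replicate 1 (edgeR adjusted p = 0.740) and at 2.71 without replicate 3 (edgeR adjusted p = 0.0771). In replicate 1, 124 of the 139 leukocyte-like Saa3 UMIs were in the 19 macrophage-like cells. The neutrophil attractant Cxcl1 was lower by -7.06 ± 1.38 (edgeR adjusted p = 0.000526), with 9, 0 and 0 UMIs in leukocyte-like cells, and at least 3.48-fold and 5.27-fold lower in replicates 2 and 3. Cxcl2 and Nos2 were called lower from 3 UMIs and 1 UMI, and Cxcl2 lost its call without replicate 1 (edgeR adjusted p = 0.202). The Nos2 calls in leukocyte-, osteoblast- and tendon-like cells rest on the 752 UMIs of the chondrocyte-like sum of replicate 1, without which Nos2 was not tested. The comparisons with chondrocyte-like cells share the same chondrocyte-like sums, so their calls are not independent of each other.

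Lcn2 was set beside neutrophil RNA in several classes. Neutrophil-like cells held 116, 89.4 and 137 Lcn2 UMIs per 1000 UMIs of S100a8, a granulocyte gene used for that gate. Cells without a class had 180, 108 and 94.2. Chondrocyte-like cells of replicates 2 and 3 had 154 and 195, above the 89.4 and 137 of the neutrophil-like cells of those libraries. The 8 neutrophil markers were all present in the chondrocyte-like sums of replicates 2 and 3, at a summed 188 and 196 CPM, against 87767 and 140673 CPM in the neutrophil-like cells of replicates 1 and 3. The share of the Lcn2 level of those sums that is neutrophil RNA was not tested. In CAR-like cells of replicate 1, 7 of the 8 markers (all but Mmp8) were present at a summed 1769 CPM and the ratio was 171, against 2 markers present at 50.8 and 16.0 CPM in replicates 2 and 3. For Hp, CAR-like cells of replicate 1 held 4217 UMIs per 1000 of S100a8 against 33.0 in neutrophil-like cells, and the part of neutrophil RNA in the Hp level was not tested.

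The chondrocyte-like cells of replicate 1 had a different mixture of the 10 genes, with 1631 Lcn2 UMIs per 1000 of S100a8 together with high Cxcl1, Cxcl2 and Nos2. They were split, after these values had been seen, by Prg4, the lubricin gene of superficial articular cartilage. Cells with at least 5% of their UMIs from Prg4 were 52.9%, 12.4% and 15.7% of the class (286, 713 and 1316 cells), with 48, 182 and 276 cells between 4% and 6%. In replicate 1 the Prg4-rich cells had 1073 CPM of Cxcl1 against 216 CPM in the other chondrocyte-like cells. The difference was of the same kind for Cxcl2 (820 against 98.1 CPM), Lcn2 (926 against 238 CPM) and Nos2 (296 against 70.4 CPM), and it was the reverse for Hp (9.87 against 54.2 CPM). Shares of cells were 22.4% against 16.9% for Cxcl1, 11.5% against 4.71% for Cxcl2, 37.1% against 7.84% for Lcn2 and 27.6% against 10.6% for Nos2. Few cells weighed heavily. For Cxcl1, Cxcl2, Lcn2 and Nos2, 8, 4, 6 and 15 chondrocyte-like cells of replicate 1 held at least as many UMIs as all the others together.

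Levels in replicates 2 and 3 were far lower in both sets of cells. Nos2 was at 2.04 CPM in the Prg4-rich cells of replicate 2 against 0.776 CPM in the others, and at 6.46 against 1.96 CPM in replicate 3, so it was higher in Prg4-rich cells in 3 of 3 libraries. Lcn2 was at 20.95 against 20.3 CPM and 37.2 against 22.5 CPM. Cxcl1 and Cxcl2 were higher in Prg4-rich cells in replicate 1 alone, with 13.8 against 24.3 and 15.3 against 31.4 CPM of Cxcl1 in replicates 2 and 3, and 0.291 against 2.15 and 2.24 against 4.47 CPM of Cxcl2. The Prg4-rich cells of replicate 1 had a summed 39.9 CPM of the 8 neutrophil markers, against 1221 CPM in the other chondrocyte-like cells of that library, and 10.3 CPM of the 8 macrophage markers, of which 3 were present (Adgre1, C1qa, C1qb, Ccr2 and Ms4a7 were at 0). B cell and plasma cell RNA moved with the split, since 7 of the 8 B/plasma markers (all but Ms4a1) were present in those Prg4-rich cells at a summed 6453 CPM, of which the immunoglobulin gene Igkc gave 6441 CPM. In the other chondrocyte-like cells of replicate 1, 6 of the 8 were present at a summed 324 CPM (319 CPM of Igkc), and in replicates 2 and 3 the sums were 2.18 to 16.3 CPM in both sets. Igkc was detected in 87.6% of all cells of replicate 1, and its part in the result was not tested.

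**Figure D3:**
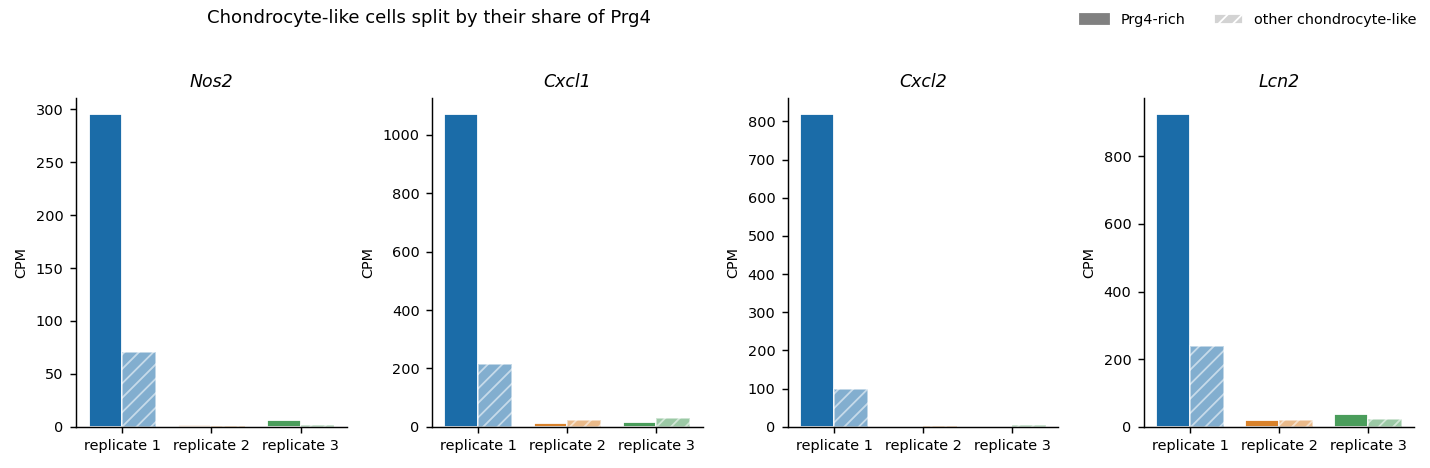
Level of Nos2, Cxcl1, Cxcl2 and Lcn2 in chondrocyte-like cells of each library, in CPM on linear axes, split into cells with at least 5% of their UMIs from Prg4 (solid bars) and the others (hatched bars). Each bar is 1 sum of cells, with no error. Both bars of replicate 1 exceed those of replicates 2 and 3 for all 4 genes, and the Prg4-rich bar of replicate 1 is the taller of its pair for each gene.

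Within replicate 1 these genes met in the same cells. The 106 chondrocyte-like cells with a Nos2 UMI had 2709 CPM of Cxcl1 against 75.0 CPM in the 435 cells without, 1907 against 67.9 CPM of Cxcl2 and 1437 against 368 CPM of Lcn2. Their Mmp3, a matrix protease gene, was at 2461 against 180 CPM, and Ptgs2, the gene of inducible cyclooxygenase, at 659 against 141 CPM. Csf2, the gene of granulocyte-macrophage colony-stimulating factor, was at 67.8 CPM against 0 UMIs. The immediate early gene Fos went the other way, at 240 against 1206 CPM. Cells with Nos2 were somewhat deeper (median 7274 against 6004 UMIs). Ccl2 was detected in 9.43% of cells with Nos2 and 5.75% without, and Il6 was low in both sets, at 8.89 and 3.71 CPM.

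For Cxcl1 and Lcn2 a weaker form was present in the other libraries. Cxcl1 was detected in 22.6% and 25.9% of the 31 and 85 chondrocyte-like cells with Nos2 in replicates 2 and 3, against 9.27% and 7.33% of those without, and in 48.1% against 12.9% in replicate 1. Lcn2 was detected in 39.6%, 22.6% and 10.6% of cells with Nos2 against 19.3%, 3.35% and 3.86% without. For Cxcl2 the shares were 27.4%, 0% and 3.53% of cells with Nos2 against 3.68%, 0.750% and 0.517% without, so it was not found with Nos2 in replicate 2. In replicates 2 and 3 the depth of the 2 sets was close (median 10390 against 10354 UMIs, and 6479 against 6096). Since the sets were made by a UMI of Nos2, these shares are a description.

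In CAR-like cells a different set of the 10 genes was found together. Cxcl1 was detected in 72.2%, 80.4% and 70.4% of CAR-like cells with Ccl2, against 26.2%, 28.0% and 21.9% of those without. Ccl7 was detected in 39.3%, 60.9% and 50.7% against 6.42%, 8% and 0%, and Il6 in 31.9%, 28.3% and 28.2% against 6.42%, 12% and 3.12%. Cells with Ccl2 were deeper by 291 to 1358 UMIs in the median. Hp was in nearly all CAR-like cells whether or not Ccl2 was seen, at 95.2%, 97.8% and 100% against 88.5%, 100% and 87.5%.

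A part of the CAR-like cells showed several of the genes at once. Hp, seen in nearly all CAR-like cells, adds 1 to most of these counts. The share that independent detection of the genes would give was not tested. At least 4 of the 10 genes were detected in 162, 29 and 42 CAR-like cells, which were 25.2% (21.8 to 28.7, exact binomial 95% interval for counting error), 40.8% (29.3 to 53.2) and 40.8% (31.2 to 50.9) of the class. The shares were 3.51%, 0.0347% and 0.0952% of chondrocyte-like cells and 1.11%, 0% and 0% of erythroid-like cells, where 0 of 53 and 0 of 59 cells allow up to 6.72% and 6.06% (exact binomial). Thinned to 1000 UMIs, CAR-like cells kept 9.94%, 15.7% and 17.3%, and chondrocyte-like cells 0.739%, 0% and 0.0243%. The most genes seen in 1 cell was 8, in 4 CAR-like cells of replicate 1. Over all cells of a library the share was 3.18 ± 4.49% (SD, n = 3), and 0.591% without replicate 1.

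**Figure D4:**
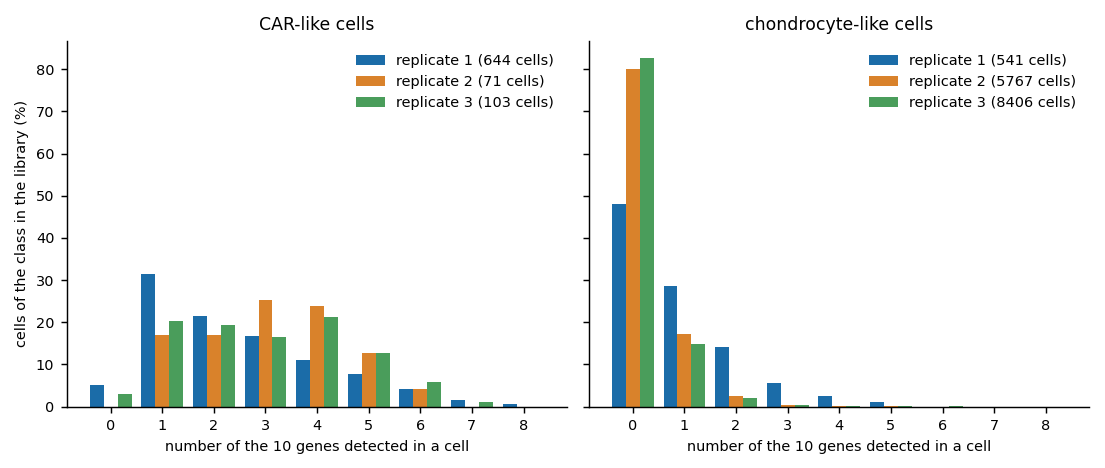
Percent of cells of a class in each library by the number of the 10 genes detected in a cell, for CAR-like (left) and chondrocyte-like cells (right), unthinned. Chondrocyte-like cells of replicates 2 and 3 pile up at 0 genes (80.0% and 82.7% of cells), while CAR-like cells spread from 1 to 6 genes in every library.

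The receptors and signalling genes upstream of the 10 genes were read in the same CAR-like against chondrocyte-like fit. This list and those that follow were also chosen with earlier results of these data known, so their counts are a description. Of 16 receptor genes for interleukins, tumour necrosis factor, interferons and Toll-like ligands, 10 were higher in CAR-like cells and 1 lower, against 16.9% and 18.1% of all genes tested. The interleukin-1 receptor gene Il1r1 stood at 591, 603 and 815 CPM against 90.4, 77.4 and 80.1 CPM (2.58 ± 0.31, edgeR adjusted p = 1.52e-05). The tumour necrosis factor receptor gene Tnfrsf1b (2.63 ± 0.43) and the interferon-gamma receptor gene Ifngr2 (2.18 ± 0.33) were higher as well, and the exception was Osmr, the oncostatin M receptor gene. Of 22 signalling and transcription factor genes, 10 were higher and 1, Rela, lower, beside the same 16.9% and 18.1%. The 3 with the largest difference were the NF-κB inhibitor gene Nfkbie (3.88 ± 0.40), Irf1 of interferon signalling (3.14 ± 0.37) and Tnip1, which restrains NF-κB signalling (2.38 ± 0.32).

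Of 23 other chemokine and cytokine genes, 19 were tested, 9 were higher in CAR-like cells and 1, Il11, was lower, again beside 16.9% and 18.1% of all genes. Cxcl9, an interferon-induced T cell attractant, had 501, 360 and 125 CPM in CAR-like cells against 0.777, 0.0890 and 0.0535 CPM (11.03 ± 1.03, edgeR adjusted p = 3.74e-06). Csf1, the macrophage growth factor gene, had 880, 1029 and 1545 CPM against 47.9, 14.8 and 18.5 CPM (5.28 ± 0.59), and Cxcl10 498, 470 and 458 CPM against 11.4, 10.1 and 13.1 CPM (4.98 ± 0.81). Among 19 tested genes of other induced effectors, 9 were higher and 4 lower, with the same shares over all genes. The leukocyte adhesion gene Vcam1 (8.22 ± 0.95) and the complement gene Cfb (6.05 ± 0.52) were higher, and Mmp3 was lower (-6.71 ± 0.78), at 5.40, 0 and 7.99 CPM against 712, 29.9 and 38.7 CPM.

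The immediate early genes, which rise within minutes of cell handling as well as of other stimuli, were seldom called between these 2 classes. Of 18 such genes, 0 were higher and 2 lower in CAR-like cells (Klf4 by -1.36 ± 0.32 and Ier2 by -0.83 ± 0.31), against 16.9% and 18.1% of all genes. Klf4 stood at 282, 534 and 410 CPM against 864, 700 and 760 CPM in chondrocyte-like cells. Ier2 had 166, 307 and 266 CPM against 322, 307 and 310 CPM, alike in replicate 2 (edgeR adjusted p = 0.0470). The median log2 fold change of the 18 genes was 0.26. In leukocyte-like against chondrocyte-like cells 14 of the 18 were lower, against 31.7% of all genes, and 0 higher, against 23.3%. The part that the 90 min digestion has in the level of the 10 genes was not tested, because all 3 libraries were digested alike.

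Over the 21 sums of a class in a library with at least 20 cells (10 classes), the profiles of the 10 genes were compared as log2 of CPM plus 10. These sums share libraries, depth and gates, so Pearson's r is a description. Ccl2 and Ccl7 were the most alike pair (r = 0.96), followed by Cxcl5 with Saa3 (0.93), Saa3 with Hp (0.89), and Cxcl1 with Cxcl2 (0.88). Lcn2 stood apart from the chemokines, with r from -0.12 (Ccl2) to 0.10 (Cxcl2). For Nos2, r to the chemokines ran from -0.15 (Ccl7) and -0.02 (Ccl2) to 0.32 (Cxcl1) and 0.39 (Cxcl2). Among all genes with at least 200 UMIs, the one closest to Ccl2 and to Ccl7 was C1ra, a complement protease gene (0.94 and 0.89). Closest to Cxcl1 was Igfbp5 (0.95), to Cxcl2 Serpina3n, an acute-phase serine protease inhibitor gene (0.94), to Cxcl5 Dnah9 (0.95), to Il6 Kcne4 (0.94), to Saa3 the interleukin-1 receptor antagonist gene Il1rn (0.92) and to Hp B3gnt5 (0.97). Lcn2 was closest to the neutrophil granule genes Ngp (0.97) and Camp (0.97) and to S100a9 (0.97). Nos2 was closest to Slc39a2 (0.92), and Csf2 was also among its 3 closest genes (0.86).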

How the data were processed

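Droplet single-cell RNA-seq libraries of sorted Alcam+Sca-1- BLCs from WT mice were prepared with a 3′ kit (version 3.1). The authors aligned the reads to mm10 (GRCm38) and counted UMIs with Cell Ranger 7.1.0, per the labels, and the deposited tables hold these raw UMI counts for 2606, 7172 and 10529 barcodes (20985636, 79905165 and 69890252 UMIs). The study's methods name a larger total of cells than these barcodes, and its clusters were not used here.

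Barcodes were dropped under 200 genes or above 20% mitochondrial UMIs (79, 447 and 299), and the highest Scrublet scores (scanpy 1.11.5) were removed as doublets at 0.8% per 1000 cells (51, 362 and 837 cells), because the automatic threshold marked 12, 1 and 0 cells and did not work. Cells were gated by marker lists as described above, so a class need not match a cluster of the study. Counts were summed per class and library (at least 20 cells, 16 sums, 8 residual degrees of freedom) and tested with edgeR 4.0.16 (R 4.3.3; quasi-likelihood, TMM scaling, filterByExpr, library as a block, two-sided). The library is the block because the replicate number marks sums that were made from 1 library. Simulated counts with a fixed dispersion and no library effect were used to check the code. They do not show how the test behaves on these sums. Ratios within a library carry exact conditional binomial 95% intervals, which cover counting error only, as do shares and the 3-UMI floor. Chosen with earlier results of these data known were the 10 genes, the gates and the pathway lists. Named from the pathway lists were the 3 called genes with the largest change in CAR-like against chondrocyte-like cells, plus single exceptions chosen after their values were seen. For likeness, the genes with the highest r were named.

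Alternatives were size factors of DESeq2 (RLE), DESeq2 1.42.0, no filter on low counts, no library block, gates of 2 or 4 markers, a mitochondrial limit of 10%, no doublet removal, cells of at least 1000 UMIs, and each library left out. Added after seeing the data were sums of at least 10 cells, sums without the top cell of each gene, and the split by Prg4. Promoter letters came from RefSeq and gene positions from GENCODE models of GRCm38.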

Additional observations from a re-analysis of the deposited data

How the results depend on the processing

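Of the 10 genes, 9 were called between CAR-like and chondrocyte-like cells, 6 between leukocyte-like and chondrocyte-like cells and 6 between tendon-like and chondrocyte-like cells. With 1 library left out these counts ranged from 7 to 9, 5 to 6 and 2 to 4. The replicate block, which ties the sums of 1 library, mattered in part, since without it 7, 6 and 5 genes were called, 2 in osteoblast-like and 2 in fibroblast-like against chondrocyte-like cells, and 1 in CAR-like against fibroblast-like cells. DESeq2 called 7 between CAR-like and chondrocyte-like cells. In tendon-like cells DESeq2 and a gate of 4 markers each called 3. Leukocyte-like cells had 4 under a gate of 4 markers. For osteoblast-like cells (3 called), a gate of 4 markers gave 1, no filter on low counts 6 and leaving out a library 1 to 3. For fibroblast-like against chondrocyte-like cells (1 called), sums of 10 cells gave 2, no filter 3, removal of the top cell 3 and leaving out a library 0 to 1. For CAR-like against fibroblast-like cells (2 called), sums of 10 cells gave 5, no filter 8, DESeq2 3, removal of the top cell 3 and leaving out a library 1 to 2. The cause of these shifts was not tested. Neither comparison with fibroblast-like cells could be made with a gate of 4 markers or without replicate 1, since no sum of 20 cells was left.

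Ccl7 in tendon-like cells changed sign without replicate 1 (-1.22, the low end of a range up to 5.23 over the libraries left out), with a gate of 4 markers (-1.49) and without the top cell (-7.11). Il6 in CAR-like cells fell to a mean of 146 CPM without the top cells. Cells thinned to 1000 UMIs gave 1.16% with at least 4 genes in place of 3.18%, and leaving out a library gave 0.591% to 4.48%. Genes called over all genes fell from 3789 to 2165 and 2211 without replicate 2 or 3 in CAR-like, from 2356 to 911 and 1101 in tendon-like and from 3339 to 1293 and 1349 in osteoblast-like against chondrocyte-like cells. In fibroblast-like against chondrocyte-like cells they moved from 430 to 1058 (sums of 10 cells), 891 (no filter), 166 and 130 (without replicate 2 or 3), and in CAR-like against fibroblast-like cells from 620 to 1243, 1048, 297 and 264. Scaling by size factors moved the median of all genes by 0.19, 0.16 and 0.14 (log2) in fibroblast-like, tendon-like and osteoblast-like against chondrocyte-like cells. The lowest levels are limited by the 3-UMI floor, which was 6.62 and 7.99 CPM in the CAR-like sums of replicates 2 and 3.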
